A study of Mus musculus with 32 samples.

Results

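The mRNAs of microtubule-associated proteins were followed from the soma into the dendrites of the same mouse neurons for 10 genes, Map2, Map1a, Map1b, Mapt, Map4, Map6, Map7d1, Dcx, Dclk1 and Mapre1. They were taken by name, and all 10 were found among the 44081 genes of the combined 3′UTR count table, in which the reads on every 3′UTR of a gene are summed. Their separate 3′ ends made up 45 of the 74532 features of a second table, in which each annotated end of a gene is counted on its own. The libraries came from hippocampal neurons of C57BL/6 mice at embryonic day 18, kept for 15 days in culture. No genotype, drug or other treatment distinguished the libraries. From each of 16 neurons the dendrites and the soma were drawn into separate micropipettes and amplified as polyadenylated RNA, giving 16 dendrite and 16 soma libraries. Neurons 1 to 4 went through 3 rounds of amplification and the other 12 neurons through 2 rounds. The neurons were grown as primary cultures and picked singly, and nothing in the labels ties a neuron to an animal, so p-values measure the spread between these neurons.

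Microtubule-associated proteins bind along the tubulin lattice, space and stabilize the filaments, and steer motor traffic. MAP2 protein is the classical marker of dendrites, whereas tau, the product of Mapt, is best known from axons. The mRNA of Map2 is a textbook case of a transcript carried into dendrites, where it can be translated away from the cell body. The 3′UTR of an mRNA often holds the sequences that proteins read for transport, so the choice among alternative 3′ ends can matter for where a transcript goes.

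Figures for the whole series set the limits of these values. The dendrite libraries held 646521 to 6954420 reads on 3′UTRs and the soma libraries 925525 to 21169974. At least 10 reads were found for 1570 to 9871 genes per dendrite and for 6041 to 12185 genes per soma. Mitochondrially encoded genes took 2.39 to 35.8% of the 3′UTR reads in dendrites and 0.277 to 8.12% in somas. Dendrites 15 and 16 stood apart, with the fewest detected genes (1570 and 2485), the highest mitochondrial shares (35.8 and 32.4%) and the highest shares of ERCC spike-in reads (17.1 and 7.55%). Each member's difference was therefore also fitted without neurons 15 and 16, a choice made after the data were seen. The sample names of both neurons carry the letter P, as those of no other neuron do, and what it stands for is not given. Interneuron markers were abundant in both compartments. Gad1, which encodes a GABA-synthesizing enzyme, had a median of 1722 scaled counts in dendrites and 6990 in somas (adjusted p = 0.0148, edgeR). It was the one marker called by edgeR. Its log2 fold change of dendrites over somas was -1.58, close to the -1.49 of the median gene. DESeq2 also called Gad2, Dlx1, Lhx6, Meg3, Miat and Gap43 higher in somas, where it called 46.2% of all genes. It called Slc17a7 and Aqp4 higher in dendrites, where it called 4.26% of all genes. Slc17a7, a vesicular glutamate transporter of pyramidal neurons, had medians of 47.0 and 4.24 (adjusted p = 0.117, edgeR). Its log2 fold change of 2.97 was the largest among the 5 tested pyramidal markers. Neurod2 had 2.07, Camk2a 1.25, Neurod6 0.163 and Grin1 -0.798. The summed level of 6 astrocyte markers ran from 0 to 846 scaled counts in dendrites and from 0 to 538 in somas, and that of 6 microglial markers from 0 to 384 and from 0 to 10.9. The sum of 6 oligodendrocyte markers reached 221 in dendrites and 134 in somas, with medians of 14.8 and 7.14. Medians of the summed level were 263 in dendrites and 112 in somas for 6 pyramidal markers, 4251 and 9847 for 6 interneuron markers, 491 and 1289 for 5 nuclear-retained RNAs, 259 and 149 for 6 dendritic RNAs, and 3651 and 4406 for 6 genes of the axon and its initial segment. The part of these cell types and of axons in the results was not tested.

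The 3′ ends named in the text are matched here to annotated positions, because the distinction between a distal and a proximal end carries the results on isoforms. The counts name each feature without a position, so this match was inferred from the order of ends and was not checked. The study built its features from several annotations and merged ends close to each other. Coordinates and transcripts are those of GENCODE M21 on GRCm38, the assembly that the labels call mm10. The features of a gene were taken to be numbered from its most distal end. Map2 lies on the plus strand at chr1:66175273-66442583. Map2_utr1 was matched to its most distal annotated end, at position 66442583 (transcript Map2-205). Map2_utr2 was matched to the next end upstream, at 66442028 (Map2-206). Both annotated ends follow a coding sequence that ends at 66439004, so under this match they are tandem ends of the same terminal exon sequence. The last bases of these transcripts are shown 5′ to 3′ with the poly(A) signal hexamer AATAAA or ATTAAA in capitals. A hexamer was searched on the transcript strand in the last 40 bases, and 30 bases are printed. Either hexamer was present in that window at 58.3% of 40797 distinct annotated ends of protein-coding transcripts.
Map2_utr1, distal: ttttgcaaAATAAAattgcttgtcacctaa
Map2_utr2, proximal: tgccaaatgtagcattatgtcagtggtagt
Map1a_utr1, distal: atatatatATTAAAtctttgctcatatctg
Map1a_utr2, proximal: cctctaacAATAAAccaagttcattgcaga
Mapt_utr1, distal: aatttggaAATAAAgttattactctgaata
Map4_utr1, distal: atttaaacAATAAAgctgcctgacatccca

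The window of Map2_utr2 is printed without capitals because neither hexamer was found in the last 40 bases of Map2-206, the transcript matched to it. This says only that these letters are not in the window. Map1a lies on the plus strand at chr2:121289600-121310832, with its distal end at 121310832 (Map1a-201) and its proximal end at 121309438 (Map1a-202), both downstream of a coding sequence that ends at 121308084. Mapt lies on the plus strand at chr11:104231390-104332090, and its distal end is that of Mapt-204 at 104332090. Map4 lies on the plus strand at chr9:109931460-110083955, and its distal end is that of Map4-201 at 110083955. Map4_utr5 is the most proximal of the 5 ends of Map4, and the most proximal annotated end of a complete coding transcript, Map4-206, is at 110005739 after a coding sequence of 297 bases, against 3375 bases in Map4-201. The remaining members lie at chr13:99421446-99516540 (Map1b, minus strand), chr7:99267447-99337137 (Map6, plus), chr4:126232167-126256343 (Map7d1, minus), chrX:143855842-143933311 (Dcx, minus), chr3:55242364-55539068 (Dclk1, plus) and chr2:153741274-153773310 (Mapre1, plus).

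The first comparison asked which of the 10 mRNAs were more abundant in dendrites than in the soma of the same neuron, relative to the rest of the library. Levels are given as scaled counts, which are 3′UTR reads brought to a common library size (CPM) after TMM scaling, and differences as the log2 fold change of dendrites over somas. Map2 and Map1a were higher in dendrites on this scale, though neither was on the scale of the spike-in described further on, where Map1a had a negative value. None of the other 8 members differed between compartments at an adjusted p of at most 0.05 (edgeR's quasi-likelihood test with neuron as a block, Benjamini-Hochberg over all 10880 genes tested). Over all genes tested, 0.827% passed as higher in dendrites and 5.71% as higher in somas. The members stood at 2 of 10 and 0 of 10, with no further member at an unadjusted p under 0.05. DESeq2, the tool of the study, also called Map2 and Map1a higher in dendrites, where it called 4.26% of all genes, and called 2 members, Dcx and Map6, higher in somas, where it called 46.2% of all genes. A smaller piece of dendrite in the pipette and less RNA per length of it cannot be told apart in these data.

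**Figure D1:**
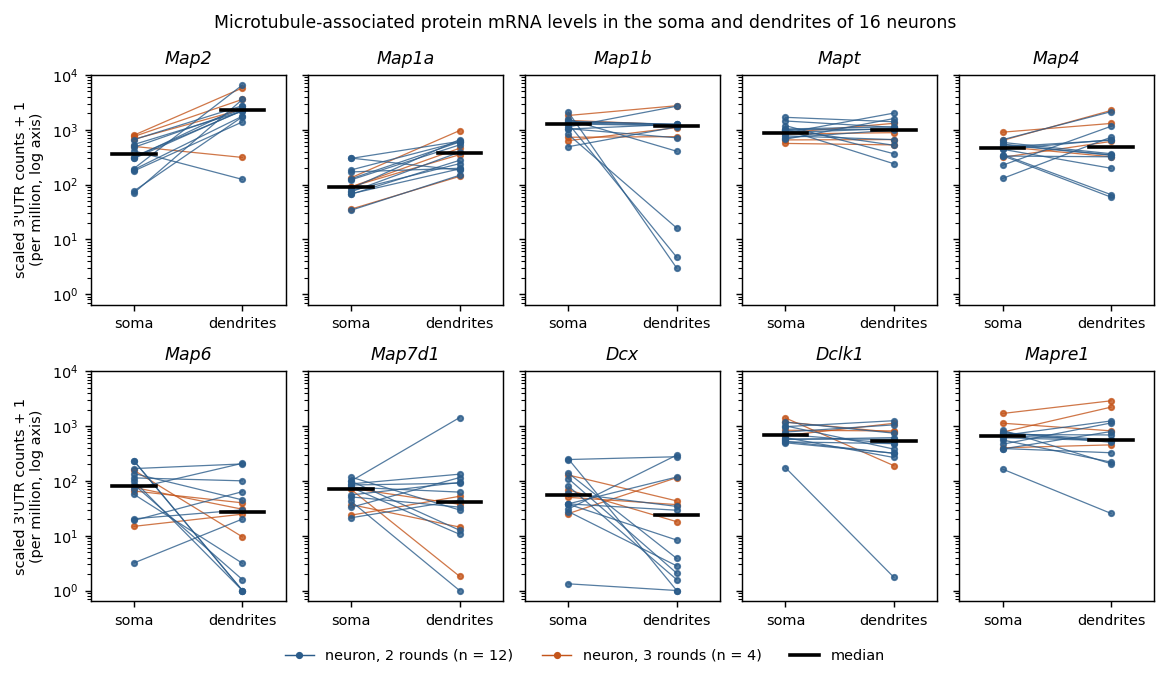
Scaled 3′UTR counts plus 1 (log axis) of the 10 members in the soma and dendrites of each neuron, joined by a line, with medians as bars. Under this TMM scaling Map2 lies above every soma value in 14 dendrites and at 311 and 123 in dendrites 2 and 14, while Map1b lies at 15.1, 1.99 and 3.71 in dendrites 10, 15 and 16.

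Map2, the dendritic MAP, had 123 scaled counts in the lowest dendrite, a median of 2302 and 6548 in the highest. In somas it had 69.3, 366 and 794. Every library held Map2 reads, from 127 in the lowest soma to 12227 in the highest dendrite. In 14 of 16 dendrites the level was above that of every soma, and the ranges met only through dendrites 2 and 14, with 311 and 123 scaled counts. Its log2 difference of 2.66 (adjusted p = 0.00202, edgeR) was larger than that of 97.9% of the genes tested. Dendrites 2 and 14 also had the lowest mitochondrial shares among dendrites, 2.39 and 4.30%, and detected 7285 and 8265 genes. The part of these libraries' composition in their Map2 level was not tested. Leaving out any neuron kept Map2 called, with fold changes from 2.50 to 3.02.

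Map1a, a large MAP that binds mature dendritic and axonal microtubules, had 140 scaled counts in the lowest dendrite, a median of 369 and 962 in the highest. Its somas had 32.9, 89.7 and 302. Dendrites were higher in 15 of 16 neurons, neuron 15 being the exception with 183 scaled counts in the dendrites and 302 in the soma, and 9 dendrites were above every soma. Dendrites exceeded somas by 1.82 on the log2 scale (SE 0.58, adjusted p = 0.0466, edgeR). This call lay close to the threshold: it was lost on leaving out any of 9 neurons, which were neurons 3 to 11 (the adjusted p ranged from 0.00507 to 0.0832 over the 16 fits), and held without neurons 15 and 16 (adjusted p = 0.0233).

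Both calls depended on the scale. TMM scaling placed the median of all genes at -1.49, since most genes were lower in dendrites, and 8 of the 10 members lay above this median. Relative to it, Map2 was 4.15 and Map1a 3.31 higher on the log2 scale. When the dendrites were rescaled so that the median gene did not differ, 590 genes rose and 89 fell in dendrites instead of 90 and 621, and 5 members passed in that direction, where 5.42% of all genes did, Map2, Map1a, Map4 (1.68), Mapt (1.45) and Mapre1 (1.40). The labels give no ERCC spike-in for neurons 1 and 2, though the study describes adding it to every tube, and these neurons were left out here. With spike-in reads as library size in the other 14 neurons, the median gene was at -3.97. Map2 was at 0.15 (SE 0.93, adjusted p = 0.882, edgeR) and Map1a at -0.68 (adjusted p = 0.559). Each of the other 8 members was then called in the direction of somas (edgeR), Map4 at -2.14, as were 62.9% of all genes on that scale. The distance from the median gene was 4.13 for Map2 and 3.29 for Map1a on the spike-in scale, and 4.20 and 3.36 after rescaling. Scaling moves all genes of a library alike, so this distance is largely fixed in advance.

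**Figure D2:**
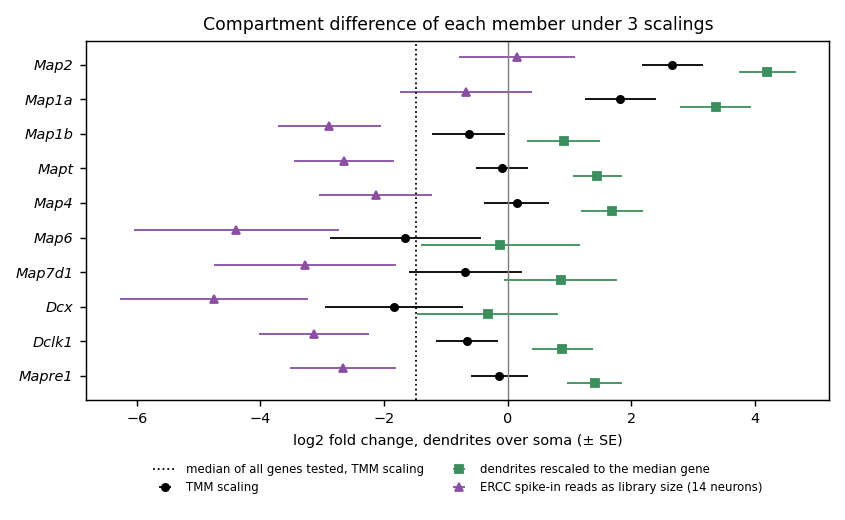
Log2 fold change (dendrites over soma, ± SE) of each member under TMM scaling, after rescaling dendrites to the median gene, and with ERCC spike-in reads as library size; the dotted line is the median of all genes under TMM. Map2 and Map1a lie furthest to the right under each of the 3 scalings, though not past 0 for Map1a with the spike-in, with Map2 at 2.66, 4.20 and 0.15 and Map1a at 1.82, 3.36 and -0.68.

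The remaining structural MAPs were present in both compartments without a called difference. Map1b, a MAP of growing neurites, had a median of 1149 scaled counts in dendrites and 1286 in somas, and a difference of -0.64 on the log2 scale (SE 0.60, adjusted p = 0.453, edgeR). Its somas were close together, from 489 to 2109 scaled counts, whereas its dendrites ran from 1.99 to 2739. Dendrites 10, 15 and 16 had 26, 3 and 5 Map1b reads. In the other 13 dendrites the lowest Map1b level was 404 scaled counts, so a gap separated these libraries from the rest. Without neurons 15 and 16 the fold change was -0.22 (adjusted p = 0.706), and leaving out single neurons gave -0.79 to -0.16, the latter without neuron 15 or 16.

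Mapt, which encodes tau, had similar levels in both compartments on the TMM scale. Its levels were 238, 1002 and 2010 scaled counts in the lowest, median and highest dendrite and 561, 882 and 1682 in somas. Its log2 difference was -0.09 (SE 0.42, adjusted p = 0.892, edgeR), and 9 of 16 neurons were higher in dendrites. It was at 1.45 after rescaling and at -2.65 with spike-in reads, called on both scales (adjusted p = 0.0191 and 0.00525), and at -0.35 without neurons 15 and 16 (adjusted p = 0.429). Map4, a MAP of many cell types, had medians of 487 in dendrites and 462 in somas, with dendrites spread from 57.8 to 2243 and somas from 128 to 901. The fold change was 0.14 (SE 0.53, adjusted p = 0.866), with 8 of 16 neurons higher in dendrites. The 3 members Map1b, Mapt and Map4 thus differed by less than the spread between neurons on this scale.

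Map6 and Map7d1 were low in dendrites and variable. Map6, which protects microtubules from cold and drugs, had a median of 26.2 scaled counts in dendrites, up to 208, and of 79.9 in somas, up to 232. No Map6 read was found in dendrites 14, 15 and 16, whereas every soma had some. On the log2 scale the difference was -1.66 (SE 1.22, adjusted p = 0.338, edgeR), and -0.98 without neurons 15 and 16 (SE 1.05, adjusted p = 0.573). Leaving out neuron 15 or 16 alone gave -1.04. Map7d1, a relative of the kinesin-recruiting MAP7, had medians of 39.8 in dendrites and 70.7 in somas. A single library set the upper end: dendrite 15 held 1429 scaled counts (2159 reads), against at most 132 in any other dendrite and 116 in any soma. The fold change was -0.68 (SE 0.92, adjusted p = 0.606), with -0.66 without neuron 15 and -0.83 without neurons 15 and 16 (adjusted p = 0.591). Leaving out single neurons gave -0.89 to -0.14, the latter without neuron 12, whose dendrites had no Map7d1 read.

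Dcx and Dclk1 share the doublecortin domains that bind between protofilaments, and Dclk1 adds a kinase domain. Dcx had a median of 22.6 scaled counts in dendrites and 54.2 in somas, and was higher in dendrites in only 4 of 16 neurons. Its dendrites ranged from 0 in neurons 12 and 15 to 295 in neuron 13, where the soma had 29.7. Dendrites minus somas gave -1.85 on the log2 scale (SE 1.12, adjusted p = 0.245, edgeR). Dclk1 had medians of 529 in dendrites and 689 in somas, and 1254 in the highest dendrite. Dendrite 16 held a single Dclk1 read, where its soma had 174 scaled counts. The fold change was -0.66 (SE 0.50, adjusted p = 0.353), again with 4 of 16 neurons higher in dendrites, and -0.48 without neurons 15 and 16 (adjusted p = 0.326). It was -0.76 to -0.19 on leaving out single neurons, the latter without neuron 16. Mapre1 encodes EB1, which tracks growing plus ends. It had medians of 557 in dendrites and 671 in somas, with dendrites from 24.5 to 2896 and a fold change of -0.14 (SE 0.46, adjusted p = 0.852).

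Expressed as the share of a neuron's scaled counts that lay in the dendrites, Map2 had a mean of 80.6% ± 20.5 (SD, n = 16), with a low of 23.1% in neuron 14 and a high of 98.1% in neuron 12. These shares set both libraries of a neuron to the same size by TMM and are not shares of RNA molecules. With spike-in reads as library size, the Map2 difference was 0.15 and that of Map1a -0.68 on the log2 scale. Map1a followed at 76.0% ± 13.2 (SD, n = 16). The means of Map4, Mapt, Mapre1, Map7d1 and Map1b lay between 41.7 and 52.0%, with SDs of 14.0 to 28.8 percentage points, and that of Dclk1 just below them. Map6 had 35.4% ± 31.8 (SD, n = 16), and Dcx 33.0% ± 31.1 (SD) in the 15 neurons with at least 10 scaled counts in total. The share fell below 10% in 6 neurons for Map6 and in 5 for Dcx, and in none for Map2, Map1a, Mapt, Map4 and Mapre1. No test was made on these shares.

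Detection in dendrites varied between members. Map2, Map1a, Mapt, Map4 and Mapre1 had at least 10 reads in 16 of 16 dendrites, Dclk1 in 15, Map1b and Map7d1 in 14, Map6 in 11 and Dcx in 10. Dendrites 15 and 16 had at least 10 reads for 7 of the 10 members, the lowest number, while 7 dendrites had them for all 10. In somas at least 9 members reached 10 reads.

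A ratio of a pair of genes within a library does not depend on how libraries are scaled. The log2 ratio of Map2 to each other member was therefore compared between the dendrites and soma of a neuron with an exact sign-flip permutation test (two-sided, 16 neurons). The ratio was higher in dendrites for 8 of the 9 members, Map1a being the exception (adjusted p over all genes of at most 0.05). Set against every other gene tested, 10248 of 10879 ratios of Map2 rose in the same way, which is 94.2%. The share of members is close to this background, so the test says nothing particular about these 9 genes.

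**Figure D3:**
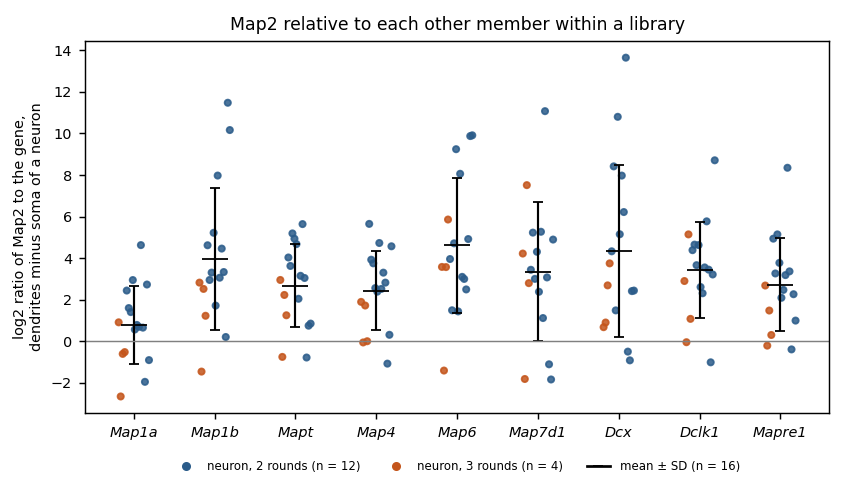
Dendrites-minus-soma difference of the log2 ratio of Map2 to each other member, for each neuron, with mean ± SD (n = 16). The means run from 0.80 for Map1a to 4.61 for Map6, where dendrites without a read rest on the pseudocount, and the points below 0 come from few neurons, chiefly 2 and 14.

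The ratio of Map2 to Map6 differed by 4.61 ± 3.25 (SD, n = 16, higher in 15 of 16 neurons, exact permutation p = 6.1e-05). Map6 had no read in dendrites 14, 15 and 16 and Dcx none in dendrites 12 and 15, so these values depend on the pseudocount of 1, and with 0.5 or 5 in its place they were 4.84 or 4.03 for Map6 and 4.52 with 0.5 for Dcx. The ratio to Dcx rose by 4.34 ± 4.14, to Map1b by 3.98 ± 3.42, to Dclk1 by 3.44 ± 2.31 and to Map7d1 by 3.35 ± 3.35 (SD, n = 16). Against Mapre1, Mapt and Map4 the differences were smaller, 2.73 ± 2.22 for Mapre1, 2.68 ± 2.01 for Mapt and 2.44 ± 1.91 for Map4, each higher in 14 of 16 neurons. For Map1b the log2 ratio went from -1.82 ± 1.06 in somas to 2.15 ± 3.51 in dendrites (SD, n = 16). The ratio of Map2 to Map1a differed by 0.80 ± 1.88 (SD, higher in 11 of 16 neurons, exact permutation p = 0.110, adjusted p over all genes 0.113), within the spread between neurons. In the 12 neurons with 2 rounds of amplification alone this difference was 1.30 ± 1.76 (SD, higher in 10 of 12 neurons, exact permutation p = 0.0259). Leaving out single neurons gave 0.54 to 1.03 for Map1a. The adjusted p over the 9 ratios then ran from 0.0325 to 0.217 (exact permutation), and 15 of 16 fits had no call. Leaving out neurons 15 and 16 lowered the difference to Map1b to 3.00 ± 2.28 (SD, n = 14) and kept 8 of 9 ratios below the threshold.

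By a fixed rule, the 5 genes whose log2 scaled counts had the highest Pearson correlation with Map2 over all 32 libraries were Gm13341 (r = 0.84), mt-Th (0.84), mt-Rnr2 (0.84), Ndufa1 (0.83) and Cox5b (0.83). The libraries share the split into dendrites and somas, so these values are a description. mt-Th and mt-Rnr2 are a transfer RNA and a ribosomal RNA of the mitochondrial genome, and Ndufa1 and Cox5b are nuclear genes of respiratory complexes I and IV. Nuclear copies of mitochondrial sequence can share reads with mitochondrial genes, so the values of mt-Th and mt-Rnr2 are uncertain. Within the 16 dendrites alone these 5 correlations were 0.60 to 0.76, and within somas 0.47 to 0.82. Of the members, Map1a came nearest to Map2 (r = 0.64, 71st in order, 0.55 in dendrites and -0.12 in somas), and Dcx was at the opposite end with -0.45.

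Other genes that act on microtubules were read from the same fit in 5 lists. None of their genes was called in either direction by edgeR in this fit. With DESeq2 size factors in edgeR, Map7d2, Ttll12 and Ttll7 were called higher in somas, as were 1008 of 10880 genes. With 2 rounds alone Ttll12 was, as were 306 of 10642 genes. Leaving out neuron 2, 3, 5 or 8 also gave a call for Ttll12, and leaving out neuron 2 gave a call for Map7d2. Over all genes, 26.7% were lower in dendrites at an unadjusted p under 0.05, and DESeq2 called 46.2% lower, against which the counts of each list should be read. Of 9 tested structural MAPs outside the 10 members, 2 had an unadjusted p under 0.05, both lower in dendrites, and DESeq2 called 4. The smallest p belonged to Map7d2, at -2.48 (SE 0.88, adjusted p = 0.0684), and Map1s, at -3.58 (SE 1.74, adjusted p = 0.156). Their median log2 fold change was -1.71, against -0.39 for the 10 members and -1.49 for all genes. All 22 plus-end and minus-end binding proteins were tested, with a median of -1.11 and 4 lower in dendrites at an unadjusted p under 0.05 (12 called by DESeq2). Nav1, a neuron navigator, had -2.06 (SE 0.78, adjusted p = 0.0817), and Clip2, a linker of plus ends, -3.15 (SE 1.25, adjusted p = 0.0956).

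The severing enzymes, which cut microtubules, had a median of -2.80 over 5 tested genes, with 2 at an unadjusted p under 0.05 and 3 called by DESeq2, among them Spast at -3.27 (SE 1.36, adjusted p = 0.108, edgeR). The tubulin-modifying enzymes had -1.80 over 13 genes, with 4 at an unadjusted p under 0.05 and 7 called by DESeq2. Ttll12 stood at -4.98 (SE 1.64, adjusted p = 0.0529, edgeR) and Ttll7, a polyglutamylase, at -2.04 (SE 0.76, adjusted p = 0.0797). The kinases and phosphatases that act on MAPs had -0.81 over 19 genes, with 2 at an unadjusted p under 0.05 and 5 called by DESeq2. Mark3, a kinase of the microtubule-binding repeats of MAPs, had -3.06 (adjusted p = 0.0908, edgeR), and Ppp2r2a, a regulatory subunit of protein phosphatase 2A, -2.48 (SE 1.13, adjusted p = 0.135). No gene of these lists had a positive fold change with an unadjusted p under 0.05. With ERCC reads as library size 5, 16, 4, 11 and 15 genes of the 5 lists were called higher in somas, where 62.9% of all genes were. After rescaling 2 structural MAPs, Map1lc3a and Tppp, were called higher in dendrites, where 5.42% of all genes were. No gene of the other lists was called after rescaling.

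The second comparison took each 3′ end on its own. Of the 45 features of the members, 4 had no read in any library, 19 had at least 10 reads in at least 5 libraries, and 17 passed the filter of 1 read in 16 libraries. Map2 had the most features, 11, of which 2 were tested, and Dcx had 6, of which 1 was tested. Of all 10652 ends tested, 0.723% passed as higher in dendrites and 16.9% as higher in somas. Among the 17 tested ends of the members, Map2_utr1 passed in the direction of dendrites and Map4_utr2 in that of somas (edgeR). Their median log2 fold change was -0.80, against -2.14 for all ends, and 13 lay above that median.

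Nearly all Map2 reads lay on the distal end. Map2_utr1 took a median of 96.8% of the reads on Map2 ends in dendrites, with a range of 64.8 to 99.9%, and of 97.7% in somas, from 93.9 to 100%. Its level had a median of 2395 scaled counts in dendrites and 445 in somas, and the log2 difference was 2.32 (SE 0.55, adjusted p = 0.00878, edgeR), with 14 of 16 neurons higher in dendrites. Map2_utr2, matched to the tandem end just upstream, had a median of 46.2 scaled counts in dendrites, up to 159, and 3.09 in somas, up to 25.0. The fold change of this minor end was 3.96 (SE 1.47, adjusted p = 0.0530), with 13 of 16 neurons higher in dendrites. It had at least 10 reads in 13 dendrites and 9 somas.

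Map1a showed the opposite layout, with most reads on the proximal end. Map1a_utr2 held a median of 91.3% of the reads on Map1a ends in dendrites and 87.0% in somas. Both ends had positive fold changes, 1.88 (SE 0.71, adjusted p = 0.0570, edgeR) for Map1a_utr2 and 1.82 (SE 1.14, adjusted p = 0.220) for Map1a_utr1. Without neurons 15 and 16, Map1a_utr2 was called (2.23, SE 0.59, adjusted p = 0.0353). End features held 60.4% of the 3′UTR reads of Map1a, 96.1% of those of Map2 59.6% of those of Mapt, 47.9% of those of Dclk1 and 17.4% of those of Mapre1, so for Dclk1 and Mapre1 most reads lay outside the counted ends.

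Map4 was spread over more ends. Map4_utr2 had reads in 9 dendrites and at least 10 in 2 of them, against reads in 16 somas, with medians of 0.802 and 32.6 scaled counts. The difference was -4.93 on the log2 scale (SE 1.43, adjusted p = 0.0211, edgeR), and -2.80 relative to the median end. Neurons 15 and 16 mattered to this call, which was lost without them (-4.02, SE 1.42, adjusted p = 0.0888). The main end of Map4, the proximal Map4_utr5, had medians of 265 in dendrites and 267 in somas (0.17, SE 0.60, adjusted p = 0.836). The distal Map4_utr1 had 52.3 and 135 (-1.86, SE 1.07, adjusted p = 0.183). Other ends with larger negative values and no call were Map6_utr3 at -3.62 (SE 1.60, adjusted p = 0.0918), Dcx_utr1 at -3.07 (SE 1.31, adjusted p = 0.0824) and Dclk1_utr4 at -2.86 (SE 1.33, adjusted p = 0.108).

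The remaining tested ends had smaller values. Mapt_utr1 had -0.29 (SE 0.54) and Mapt_utr2 -1.25 (SE 0.79). The values were -0.70 (SE 0.72) for Map1b_utr1, -0.80 (SE 0.98) for Map7d1_utr1, -0.76 (SE 0.89) for Dclk1_utr1, -1.46 (SE 1.13) for Mapre1_utr1 and -1.76 (SE 1.43) for Map6_utr1. None of these 7 ends was called (adjusted p from 0.222 to 0.683, edgeR).

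The third comparison asked whether a neuron used its alternative 3′ ends differently in dendrites and soma. For each gene the distal share was taken as the reads on the more distal of its top 2 ends divided by the reads on both, and the dendrites-minus-soma difference was tested over neurons with an exact signed-rank test (two-sided). A gene was called at an unadjusted p under 0.1. Of 3508 genes tested, 5.42% had a higher and 3.02% a lower distal share in dendrites at that threshold. Not one of them had an adjusted p of at most 0.05, and 159 had an unadjusted p under 0.05. All 10 members met the read minimum, although for Map1b the threshold was out of reach. Among them 2 were called, Map2 and Map4, both with a lower distal share in dendrites.

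**Figure D4:**
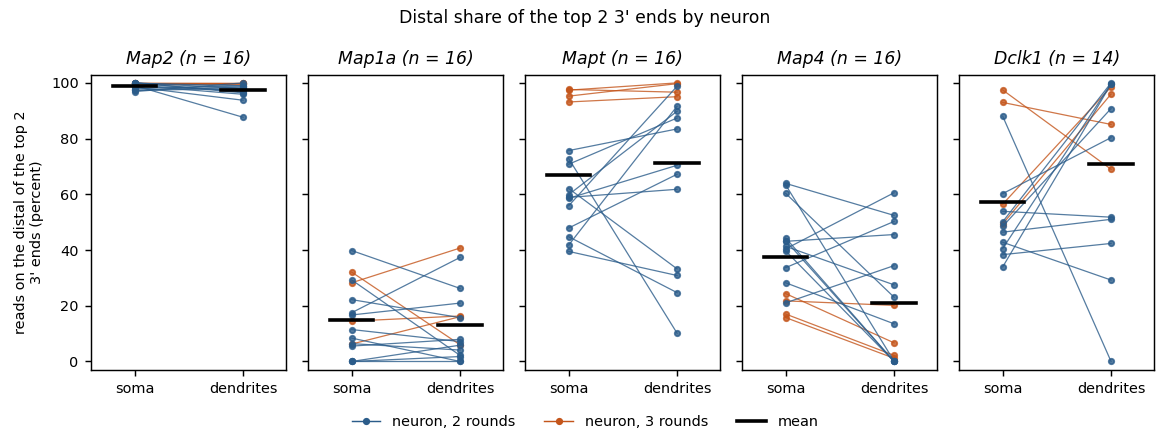
Percent of reads on the distal of the top 2 ends in the soma and dendrites of each neuron, with means as bars, for 5 members. Map2 stays near 100%, Map4 has means of 37.6% in somas and 21.1% in dendrites, and the 4 neurons with 3 rounds lie above the others in the soma for Mapt and low for Map4.

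Map4 had the larger difference. The distal Map4_utr1 held 37.6% ± 15.7 of the reads on the top 2 ends in somas and 21.1% ± 21.6 in dendrites (SD, n = 16), a difference of -16.5 ± 23.9 percentage points (SD). The share was lower in the dendrites of 12 of 16 neurons (exact signed-rank p = 0.0290, adjusted p = 0.888). Without neurons 15 and 16 the difference was -12.9 ± 23.5 points (SD, n = 14, exact signed-rank p = 0.104), which missed the threshold. In Map2 the distal share was 99.0% ± 1.09 in somas and 97.5% ± 3.14 in dendrites (SD, n = 16). The difference of -1.55 ± 3.34 points (SD) was negative in 9 neurons, positive in 5 and absent in 2 (exact signed-rank p = 0.0906, adjusted p = 1). Without neurons 15 and 16 it was -1.89 ± 3.44 points (n = 14, exact signed-rank p = 0.0425, adjusted p = 0.969). As a share of all Map2 ends the difference was -3.08 ± 8.31 points (exact signed-rank p = 0.144).

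Mapt and Dclk1, for which 59.6 and 47.9% of the 3′UTR reads lay on counted ends, had higher mean distal shares in dendrites, without a call. The distal share of Mapt was 67.0% ± 20.1 in somas and 71.3% ± 30.4 in dendrites (SD, n = 16, exact signed-rank p = 0.298). Dclk1 had 57.1% ± 20.7 and 71.0% ± 31.5 (SD, n = 14, exact signed-rank p = 0.194). Without neurons 15 and 16 the Dclk1 difference was 21.7 ± 30.8 points and passed the threshold (n = 13, exact signed-rank p = 0.0479, adjusted p = 0.969). Neuron 16 was not among the 14 pairs, so neuron 15 alone made this change, with 0% in dendrites and 88.1% in the soma. Map6 had 68.9% ± 28.4 in somas and 77.2% ± 31.6 in dendrites (SD, n = 10, exact signed-rank p = 0.375), and Map1a 14.9% ± 12.4 and 13.0% ± 12.8 (SD, n = 16, exact signed-rank p = 0.720). Map1b, Map7d1, Mapre1 and Dcx had mean distal shares of 91.6 to 100.0% in both compartments and no call. For Map1b only 4 pairs differed, all in the same direction. Its exact signed-rank p of 0.125 was thus the smallest possible, and a call was out of reach.

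The distal share was also compared between neurons amplified in 3 and in 2 rounds, a comparison chosen after the distal shares were seen. No member had an adjusted p of at most 0.05 (exact permutation). Over all genes tested, 0 of 2828 did in somas and 23 of 910 in dendrites. In somas, Mapt had 93.2 to 97.6% on its distal end in the 4 neurons with 3 rounds and 39.5 to 75.7% in the 12 with 2 rounds. These groups did not overlap, as was so for 2.19% of 2828 genes tested in somas. The means were 95.9% ± 2.10 (SD, n = 4) and 57.4% ± 12.1 (SD, n = 12), and the exact permutation p of 0.000549 is the smallest that the 1820 splits of the neurons can give (adjusted p over all genes 0.0501). In dendrites, where 3.41% of 910 genes had groups that did not overlap, those of Mapt overlapped, with 95.0 to 100% for 3 rounds and 10.1 to 98.8% for 2 rounds (exact permutation p = 0.0297, adjusted p = 0.386). Map4 went the opposite way in somas, with 19.7% ± 4.03 (SD, n = 4) against 43.6% ± 13.3 (SD, n = 12) and overlapping groups (exact permutation p = 0.00495, adjusted p = 0.155). Dclk1 somas had 74.1% ± 24.7 and 49.4% ± 16.1 (exact permutation p = 0.0275, adjusted p = 0.326). Among all genes tested, 11.1% in somas and 9.56% in dendrites had p under 0.05 in this comparison. Rounds of amplification, the neurons and any difference between their preparations cannot be told apart.

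Within the 12 neurons of 2 rounds alone, the difference of Map4 was -17.9 ± 27.5 points (SD, exact signed-rank p = 0.0923) and that of Map2 -2.07 ± 3.74 points (SD, exact signed-rank p = 0.0640). For the gene levels, no member passed the interaction test of compartment with rounds (edgeR, adjusted p = 1 for all 10, unadjusted p from 0.202 to 0.982). The same test called 0 of 10880 genes (0.0%), and 288 had an unadjusted p under 0.05. The Map2 difference was 3.01 on the log2 scale in neurons of 2 rounds (adjusted p = 0.00978) and 1.80 in the 4 neurons of 3 rounds (adjusted p = 0.320), where edgeR called 4 genes in all. Map1a was not called in either subset, at 1.65 (adjusted p = 0.180) and 2.42 (adjusted p = 0.496).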

How the data were processed

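The 10 genes and the lists of other microtubule genes and markers were chosen with earlier results of these data known. Read counts were deposited by the authors as whole-number counts per sample, on merged 3′UTRs, on single 3′ ends and on exons. Per the labels and the study's methods, reads were trimmed, mapped to mm10 with STAR 2.4.0, and uniquely mapped reads counted by strand with VERSE. Counting uses no molecular identifiers, so copies made in amplification are counted as reads. Counts were not corrected for 3′UTR length, so a difference in level between genes need not be a difference in RNA molecules.

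Each of the 32 libraries was assigned by its label to a compartment and a neuron. Features with at least 1 read in 16 libraries were fitted with edgeR 4.0.16 (TMM, robust quasi-likelihood, neuron as a block), in R 4.3.3. Standard errors are the log2 fold change divided by the square root of F. The ratios of Map2 were adjusted over all genes in place of the 9 members. DESeq2 1.42.0 was an alternative. The distal share used pairs with at least 10 reads in both compartments of at least 5 neurons. Exact and permutation tests were run in Python 3.11.15, and the ratios of Map2 had a pseudocount of 1. Named genes were the 10 members, their ends with at least 10 reads in at least 5 libraries, the 5 genes most correlated with Map2, and, from each list, every called gene and the 2 with the smallest p. A gene that this rule names is not reported here. Scripts were tested on simulated data. Samples are paired because both come from the same neuron. The deviations of same-neuron samples from their compartment mean correlated at 0.0887 ± 0.0772 (SD, 16 pairs), and those of different neurons at -0.00559. Library totals are given in the report, and intervals beyond the spread between neurons were not computed. No 2 libraries held identical values.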

Additional observations from a re-analysis of the deposited data

Results flagged for a closer look

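Reads outside the compartment comparison were found on 2 internal ends of Map2, which did not reach 16 libraries with a read and so were not tested. Map2_utr3 had reads in 7 dendrites and 7 somas, with 345 scaled counts in the highest dendrite and 33.9 in the highest soma. Map2_utr4 had reads in 7 dendrites and 5 somas, with 123 and 5.36 scaled counts at most. Among the 4 neurons of 3 rounds, a member's level was checked for a sample far from the others in 20 groups (10 members in 2 compartments), and 0 were found.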

How the results depend on the processing

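With no replicate block, the pairing by neuron being left out, 157 genes were called higher in dendrites and 77 in somas, Map2 stood at 2.69 and 2 members were called, as with the block. Mapt was then at 0.024, Mapre1 at 0.27, Map7d1 at 1.06 and Map7d1_utr1 at 0.28, all of the opposite sign. Of the members' ends, 0 were called higher in somas, where 134 of all 10652 ends were.

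The number of members called higher in dendrites, 2 in the report, was 1 with DESeq2 size factors in edgeR, library sizes without mitochondrial genes, no filter or 2 rounds alone, 0 with spike-in reads as library size or 3 rounds alone, and 5 after rescaling to the median gene. It was 1 to 2 on leaving out each neuron. The number called higher in somas, 0 in the report, was 2 with DESeq2 and 8 with spike-in reads. Over all genes, calls in dendrites and somas were 590 and 89 of 10880 after rescaling, and 16 and 6629 of 10537 with spike-in reads. With DESeq2 they were 463 and 5029 of 10880, and with DESeq2 size factors in edgeR 81 and 1008 of 10880. They were 63 and 482 of 10863 without mitochondrial genes, and 15 and 143 of 31102 with no filter. With at least 10 reads in 16 libraries they were 88 and 181 of 7109, and on exons 98 and 257 of 9804. They were 41 and 306 of 10642 with 2 rounds, and 3 and 1 of 13186 with 3 rounds. Calls were 60 and 190 of 11309 without neurons 15 and 16. The cause of these differences was not tested.

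On the log2 scale, Map2 was not called at 0.15 with spike-in reads and 1.80 with 3 rounds. Map1a was not called at 1.55 with DESeq2 size factors, 1.81 without mitochondrial genes, 1.72 with no filter, 1.65 with 2 rounds and 2.42 with 3 rounds, and reversed to -0.68 with spike-in reads. Rescaling to the median gene reversed Map1b (0.90), Mapt (1.45), Map7d1 (0.85), Dclk1 (0.88) and Mapre1 (1.40). Spike-in reads reversed Map4 (-2.14), as did DESeq2 (-0.10), DESeq2 size factors (-0.10) and 2 rounds (-0.066). With 3 rounds alone Map1b (0.41), Mapt (0.27) and Mapre1 (0.63) reversed, with at least 10 reads Mapt (0.25) and Mapre1 (0.21), and on exons Mapt (0.33) and Mapre1 (0.32). Leaving out each neuron gave 2.50 to 3.02 for Map2, 1.75 to 2.22 for Map1a, -0.019 to 0.57 for Map4, -0.25 to 0.32 for Mapre1 and -0.14 to 0.20 for Mapt.

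The number of the members' ends higher in dendrites, 1 of 17 in the report, was 3 with DESeq2, 6 after rescaling, 2 without neurons 15 and 16 and 0 with 3 rounds. Over all ends, calls in dendrites and somas were 223 and 6416 of 10652 with DESeq2, and 767 and 127 of 10652 after rescaling. They were 78 and 348 of 11181 without neurons 15 and 16, and 41 and 928 of 10466 with 2 rounds. With 3 rounds they were 4 and 1 of 14124, and with no filter 10 and 173 of 52082. With no replicate block they were 87 and 134 of 10652. The number of the members' ends higher in somas, also 1, was 8 with DESeq2 and 0 with no filter, 2 rounds, 3 rounds, rescaling, or without neurons 15 and 16. Rescaling reversed Dclk1_utr1 (1.49), Map1b_utr1 (1.56), Map4_utr1 (0.40), Map6_utr1 (0.48), Map7d1_utr1 (1.45), Mapre1_utr1 (0.77), Mapt_utr1 (1.97) and Mapt_utr2 (1.00). With 3 rounds Map1b_utr1 (0.42) and Mapt_utr1 (0.30) reversed, and with DESeq2 Map4_utr5 (-0.15). For the distal share, 1 member in place of 2 was called as a share of all ends, where Map7d1 changed sign to 0.013 percentage points, and Mapre1 changed sign to 0.998 points with 2 rounds. Map6, Dcx and Map7d1 had under 10 reads in 2 to 6 dendrites, and with 4 neurons of 3 rounds a missed call says nothing about stability.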
